A study of Mus musculus with 26 samples.

Results

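Serpina5, Slc34a2, Bpifa6 and Kcnj16 are 4 mouse genes not known to act in steroid synthesis. Their RNA was far lower than in wild type in XY fetal gonads carrying the Fgf9 deletions Δ306 or Δ93. They were selected on the counts of those libraries, as low in Δ306 or Δ93 against WT. They are 4 of the 57186 genes in the count table of all deletions. The gonads were XY, taken at E13.5 and dissected away from the neighbouring mesonephros. The 22 libraries of that table came from wild type (WT, 3 libraries) and from the genotypes Fgf9 Δ306 (3), Fgf9 Δ225 (6), Fgf9 Δ104 (4) and Fgf9 Δ93 (6). A second table held 4 libraries of a Meis1 knockout (Meis1 KO) beside the same 3 WT libraries. The labels give neither the bounds of the deletions, nor the copies deleted, nor the parents or litters. They call the Δ225, Δ104, Δ93 and Meis1 KO samples biological replicates and the WT and Δ306 samples only replicates, so p-values measure the spread between these samples. The comparisons of Δ306 and Δ93 with WT chose the genes and are given as a description only, without a test.

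FGF9 is a secreted growth factor made in the fetal testis, where it helps keep the supporting cells on the Sertoli path, marked by SOX9 and by the hormone AMH, and away from the pre-granulosa path of the ovary. Sertoli signals in turn bring up fetal Leydig cells, which make steroids with enzymes such as CYP17A1. Serpina5 encodes protein C inhibitor, a secreted serpin that blocks serine proteases and is found in the male reproductive tract. Slc34a2 encodes NaPi-IIb, which carries phosphate into epithelial cells together with sodium. Bpifa6 belongs to the BPI-fold family, whose better known members bind lipids. Kcnj16 encodes Kir5.1, a potassium channel subunit that joins other inward rectifier subunits, Kir4.1 (Kcnj10) among them.

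The 4 genes lie on 4 chromosomes. In the GENCODE M21 annotation of GRCm38, Serpina5 is at chr12:104101113-104106137, Slc34a2 at chr5:53038081-53071664, Bpifa6 at chr2:153974945-154000495 and Kcnj16 at chr11:110968033-111027968, all on the plus strand. The 250 bases upstream of a RefSeq start of each gene (GRCm38.p6, plus strand) are printed here so that their starts can be compared. The genes were chosen together, as low in Δ306 or Δ93. Capitals mark matches to any of 3 short motifs searched on both strands: AAGGTCA, bound by the steroidogenic factor NR5A1, AACAAT, bound by SOX proteins, and AGATAA, bound by GATA factors.
Serpina5, chr12:104100863-104101112: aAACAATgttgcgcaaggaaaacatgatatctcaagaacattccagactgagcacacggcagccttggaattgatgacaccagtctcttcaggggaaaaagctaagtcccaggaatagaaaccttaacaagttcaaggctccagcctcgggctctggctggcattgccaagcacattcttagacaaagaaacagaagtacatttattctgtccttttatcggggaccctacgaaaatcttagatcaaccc
Slc34a2, chr5:53049103-53049352: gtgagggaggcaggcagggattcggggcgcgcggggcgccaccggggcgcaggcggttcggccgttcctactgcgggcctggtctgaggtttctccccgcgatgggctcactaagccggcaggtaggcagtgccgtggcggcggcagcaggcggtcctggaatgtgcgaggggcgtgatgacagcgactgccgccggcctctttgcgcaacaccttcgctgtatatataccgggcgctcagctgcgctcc
Bpifa6, chr2:153974695-153974944: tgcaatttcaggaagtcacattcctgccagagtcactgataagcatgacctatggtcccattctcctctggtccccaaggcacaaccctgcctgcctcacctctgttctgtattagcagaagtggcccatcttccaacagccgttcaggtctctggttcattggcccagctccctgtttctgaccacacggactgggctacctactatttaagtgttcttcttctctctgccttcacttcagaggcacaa
Kcnj16, chr11:110967783-110968032: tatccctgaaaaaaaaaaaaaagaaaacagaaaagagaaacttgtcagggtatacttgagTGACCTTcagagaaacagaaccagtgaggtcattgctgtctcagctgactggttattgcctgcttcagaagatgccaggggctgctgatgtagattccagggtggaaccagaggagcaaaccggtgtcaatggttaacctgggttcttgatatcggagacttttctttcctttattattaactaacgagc
Serpina5 holds 1 match, AACAAT, whose first base is 249 bases upstream of the start. Kcnj16 holds TGACCTT, the reverse complement of AAGGTCA, starting 190 bases upstream. The letters of the 3 motifs are not in the windows shown for Slc34a2 and Bpifa6. Of 32851 RefSeq windows of the same length, 4.08% hold AAGGTCA, 9.42% AACAAT and 9.99% AGATAA on either strand, so the matches are a description of the sequence. The Slc34a2 window lies inside the GENCODE gene and overlaps the antisense transcript Gm17182 (chr5:53047687-53049188, minus strand), which had between 0 and 0.168 counts per 1e6 counts (CPM) in every library. RefSeq gives Kcnj16 3 further starts, and 1 of their windows, chr11:111019335-111019584, holds AGATAA.

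The libraries held 11.6 to 53.4 M counts (median 36.7 M; M, 1e6 counts) in the table of all deletions and 35.5 to 51.7 M in the Meis1 table. Fgf9 itself stood at 9.21 to 9.85 CPM in WT, 2.17 to 2.94 in Δ306, 2.30 to 4.75 in Δ93, 2.72 to 6.98 in Δ104 and 3.69 to 16.5 in Δ225. Meis1 was at 62.1 to 109 CPM in WT and 0.201 to 0.695 in the Meis1 KO libraries. Summed CPM of 12 Sertoli markers was 2177 to 2625 in WT, 747 to 2463 in Δ225, 130 to 2241 in Δ104, 149 to 1046 in Δ93 and 185 to 675 in Δ306. In 4 libraries labelled XY (Δ306 replicate 3, Δ225 replicate 4, Δ93 replicates 4 and 5) the summed CPM of the Y-linked genes Ddx3y, Uty, Eif2s3y and Kdm5d was under 1, against 31.2 to 77.2 in WT. The other deletion libraries were at 1.32 to 20.5 CPM of them, below WT, except Δ104 replicate 4 at 36.2, and the Meis1 KO libraries were at 3.67 to 15.8. Xist, the RNA of X inactivation, was at 0.671, 0.177, 6.42 and 0.226 CPM in those 4 libraries, in the order given. It was at 0.0583 to 0.185 CPM in WT, and at 2.24 and 3.12 in Δ225 replicates 1 and 2. Δ93 replicate 4 also held 1394 CPM of 7 liver genes (Alb alone 513), and Δ225 replicate 3 held 1605 CPM of 5 striated muscle genes. Those liver and muscle lists were chosen after the data were seen, and values without these libraries are given where a result rests on them.

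Serpina5 was present in WT and all but lost in Δ306 and Δ93. It stood at 6.68, 3.54 and 4.64 CPM in the WT libraries and at 0.0439, 0.0297 and 0 CPM in the Δ306 libraries, which is 2 counts in all against 624 in WT. In Δ93 its lowest value was 0, its median 0.0342 and its highest 0.383 CPM. Every Δ306 and Δ93 library lay below every WT library, in the groups that chose the gene. Of 22941 genes tested, 18.4% were likewise lower without overlap in Δ306 and 12.5% in Δ93. Pooled over libraries, Δ306 held 0.489% of the WT level (95% exact interval 0.0591 to 1.77) and Δ93 held 1.70% (1.02 to 2.68). Such intervals come from counts pooled over libraries and leave out the spread between libraries. They, and the 3 counts that a count of 0 allows, describe counting error alone. No molecular identifiers are stated for these reads. In these bulk samples, fewer cells of a type and less RNA per cell cannot be told apart.

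The other deletions kept Serpina5 in most libraries. In Δ225 it ranged from 2.08 to 11.6 CPM with a median of 7.70. In Δ104 it was 0, 0.835, 3.60 and 6.47 CPM. Δ225 overlapped WT, and Δ104 ran from no count at all (a count of 0 allows up to 0.0833 CPM in that library) to the level of the highest WT library. By median the order was Δ225, WT, Δ104, Δ93 and Δ306, and each group overlapped its neighbour in that order.

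Slc34a2 was at 2.34, 1.98 and 1.77 CPM in WT and at 0.0439, 0.0297 and 0 CPM in Δ306. Pooled, the 2 counts in Δ306 came to 1.16% of WT (0.140 to 4.25). In Δ93 it ranged from 0 to 5.09 CPM with a median of 0.239. That highest value belonged to Δ93 replicate 4, the library with the liver genes, and the other 5 Δ93 libraries stayed at or below 0.485 CPM, under every WT library. In Δ104 the values were 0.0278, 0.786, 0.756 and 1.31 CPM, and in Δ225 they ran from 0.434 to 1.31 with a median of 0.920. All Δ225 and all Δ104 libraries lay below the lowest WT library. The medians fell in the order WT, Δ225, Δ104, Δ93, Δ306, with overlap between all neighbours but WT and Δ225.

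Bpifa6 stood at 1.68, 2.02 and 2.11 CPM in WT and at 0.0878, 0 and 0 CPM in Δ306, again 2 counts in all (1.22% of WT, 0.146 to 4.44). In Δ93 its lowest value was 0, its median 0.0322 and its highest 0.153 CPM. These 9 libraries all lay below WT and below every Δ225 library. Against WT, the shares of all genes given for Serpina5 stand beside this too. Against Δ225 no such share was computed, and low values in Δ306 and Δ93 chose the gene. Δ225 ranged from 0.871 to 1.76 CPM with a median of 1.44. The Δ104 values were 0, 0.590, 1.80 and 1.51 CPM, from below to within the range of WT. The order of the medians was WT, Δ225, Δ104, Δ93, Δ306, each group overlapping the next.

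Kcnj16 differed from the other 3 genes in where it was low. It was at 3.59, 1.05 and 3.01 CPM in WT and at 0.658, 0 and 0.283 CPM in Δ306, 23 counts against 311 (11.3% of WT, 7.04 to 17.2). In Δ93 it reached at most 0.0766 CPM with a median of 0.0368, 8 counts over 6 libraries (1.44% of WT, 0.614 to 2.86). In Δ104 it was 0, 0.0983, 0.465 and 0.584 CPM, and in Δ225 1.35 to 10.6 with a median of 2.41. All libraries of Δ306, Δ93 and Δ104 lay below all of WT and Δ225. Against WT, 18.4% of all genes tested were lower without overlap in Δ306, 12.5% in Δ93 and 9.4% in Δ104. Against Δ225 no such share was computed for Δ306 and Δ93, whose low values chose the gene. By median the order was WT, Δ225, Δ306 (0.283 CPM), Δ104 (0.282 CPM) and Δ93, and only Δ225 and Δ306 did not overlap as neighbours. The highest value, 10.6 CPM, came from Δ225 replicate 3, and the next highest Δ225 library had 2.74.

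**Figure D1:**
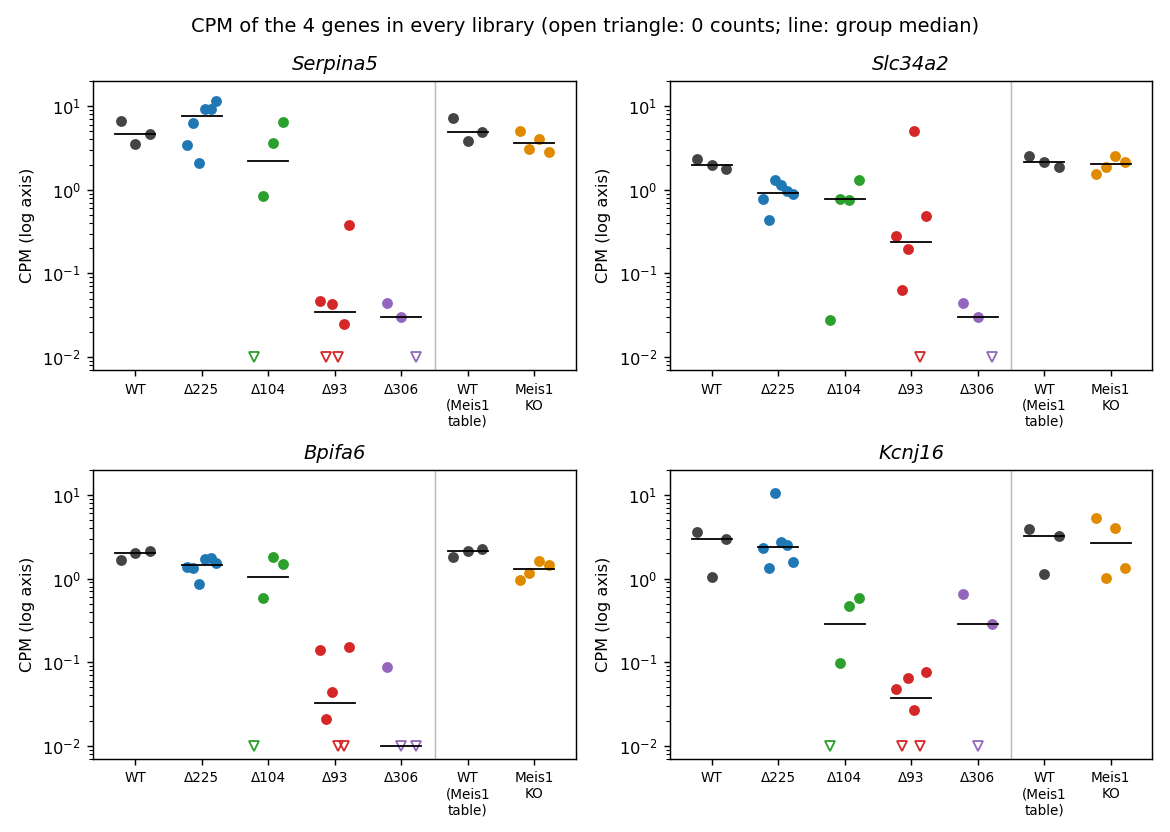
CPM (log axis) of Serpina5, Slc34a2, Bpifa6 and Kcnj16 in each library of WT, the 4 Fgf9 deletions and, right of the grey line, the separately normalized Meis1 table; points are libraries, black lines medians and open triangles libraries with 0 counts. Δ306 and Δ93 sit at the bottom for Serpina5 and Bpifa6, 1 Δ93 library stands at 5.09 CPM for Slc34a2, and Δ104 lies below WT and Δ225 for Kcnj16.

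On the fitted scale, the log2 difference from WT was −7.49 ± 1.70 (SE) in Δ306 and −5.83 ± 1.06 in Δ93 for Serpina5, and −6.09 ± 1.39 and −5.06 ± 0.92 for Bpifa6. For Kcnj16 it was −3.06 ± 1.12 in Δ306 and −6.04 ± 1.04 in Δ93. For Slc34a2 it was −6.20 ± 1.83 in Δ306 but −0.99 ± 1.02 in Δ93. Without Δ93 replicate 4 the Slc34a2 value in Δ93 was −3.29, and without the 4 libraries low in Y-linked genes it was −3.04. Without those 4 libraries the other differences stayed between −7.01 and −3.05. Fitted values of genes with 2 counts in a group depend on the prior count and are no bounds. In these comparisons 3.46% of 22941 genes passed the test as lower in Δ306 and 6.84% as lower in Δ93, and nothing is read from the members' place among them.

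Δ225 and Δ104 were not used to choose the genes, so the comparison between them is a test. Among the 4, the largest difference was that of Kcnj16, the Kir5.1 subunit, whose 6 Δ225 libraries (1.35 to 10.6 CPM) all lay above the 4 Δ104 libraries (0 to 0.584). The log2 fold change was 3.67 ± 0.97 (SE), with an unadjusted p of 0.00106 and an adjusted p of 0.0889 by edgeR's quasi-likelihood test, so it did not pass 0.05. DESeq2 gave 3.69 with an adjusted p of 0.00312, and edgeR without Δ104 replicate 4 gave 4.38 with 0.0482; over all 18 alternatives the adjusted p ran from 0.00312 to 0.485 and the fold change from 2.94 to 4.38. Without Δ225 replicate 3 it was 2.94 with an adjusted p of 0.136. Of all genes tested, 10.6% had an unadjusted edgeR p under 0.05, 0.645% passed, and 0.68% were higher in every Δ225 than in every Δ104 library.

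Serpina5, Slc34a2 and Bpifa6 overlapped between Δ225 and Δ104 and did not pass the test. Their log2 fold changes were 1.37 ± 0.89 (95% interval −0.38 to 3.11) for Serpina5, 0.38 ± 1.02 (−1.63 to 2.39) for Slc34a2 and 0.58 ± 0.77 (−0.92 to 2.09) for Bpifa6, with adjusted p of 0.647, 0.949 and 0.868 in edgeR. Δ104 replicate 1 had 0, 1 and 0 counts of the 3 genes, and the other Δ104 libraries had 12 to 133.

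Against WT, whose libraries also served to choose the genes and are shared by these comparisons, none of the 4 passed the edgeR test in Δ104 or Δ225, and none passed with DESeq2. At an unadjusted p under 0.05 in edgeR there was 1 in Δ104, Kcnj16, and 0 in Δ225. Of all genes tested, 15.7% in Δ104 and 16.1% in Δ225 had such a p. In Δ104 the log2 fold change was −3.21 ± 1.03 for Kcnj16 (unadjusted p 0.00486, adjusted p 0.173) and −1.52 ± 1.16 for Slc34a2 (adjusted p 0.514). For Serpina5 it was −0.87 ± 1.00 and for Bpifa6 −1.02 ± 0.88, with adjusted p of 0.675 and 0.563. Kcnj16 and Slc34a2 were lower in every Δ104 library than in every WT library, as were 9.4% of all genes tested, while 0.061% of genes passed the test, all of them higher. In Δ225 the fold changes were 0.50 ± 0.94 for Serpina5, −1.13 ± 1.03 for Slc34a2, −0.43 ± 0.79 for Bpifa6 and 0.46 ± 0.87 for Kcnj16, with edgeR's adjusted p between 0.577 and 0.807. Slc34a2 alone did not overlap, lower in 6 of 6 Δ225 libraries than in any WT library, as were 4.9% of genes; 0.209% passed the test.

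**Figure D2:**
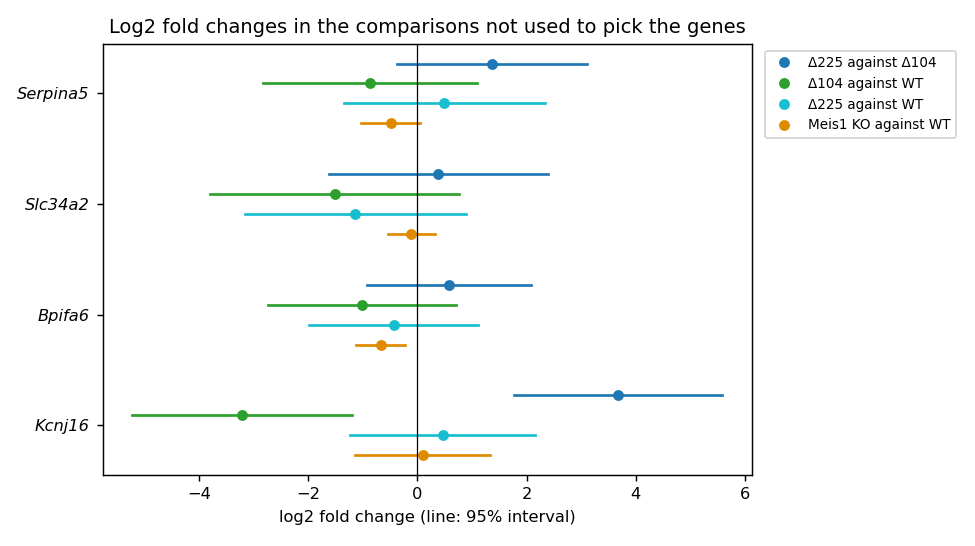
Log2 fold changes of the 4 genes in the comparisons not used to choose them, with 95% intervals (lines), from edgeR fits of all deletions and of the Meis1 table. The WT libraries in them also served to choose the genes. Kcnj16 stands farthest from 0, at 3.67 for Δ225 against Δ104 and −3.21 for Δ104 against WT, and most other lines cross 0.

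In the libraries without Meis1, a homeobox transcription factor, the fitted levels of all 4 genes were within 1 log2 unit of WT. The WT libraries here are also those that served to choose the genes. Bpifa6 stood at 0.958, 1.15, 1.61 and 1.44 CPM in the Meis1 KO libraries and 1.81, 2.13 and 2.24 in WT, without overlap. Its log2 fold change was −0.67 ± 0.23, with an unadjusted p of 0.0189 and an adjusted p of 0.165 in edgeR (0.0786 to 0.335 over 12 alternatives). So it did not pass, nor did any of the 4 with DESeq2. Of 16791 genes, 7.43% were likewise lower in every KO library, 19.3% had an unadjusted edgeR p under 0.05 and 1.8% passed. Serpina5 was at 5.06, 3.09, 4.10 and 2.83 CPM against 7.19, 3.82 and 4.93 in WT, overlapping, with a fold change of −0.49 (−1.03 to 0.05) and an adjusted p of 0.378. Slc34a2 was at 1.54, 1.89, 2.51 and 2.13 CPM against 2.51, 2.16 and 1.88, with a fold change of −0.11 (−0.55 to 0.32) and an adjusted p of 0.840. Slc34a2 thus overlapped between the KO and WT. Kcnj16 was split within both groups, at 5.24, 1.01, 4.05 and 1.33 CPM in the KO and 3.86, 1.12 and 3.19 in WT, with a fold change of 0.10 (−1.13 to 1.34) and an adjusted p of 0.956.

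The split of Kcnj16 ran alongside a kidney-type epithelial gene. Cdh16, a cadherin of kidney and mesonephric tubules, was at 20.1 and 20.4 CPM in Meis1 KO replicates 1 and 3, where Kcnj16 was high, and at 1.199 and 0.150 in replicates 2 and 4, where it was low. In WT, Cdh16 was at 13.4, 0.0971 and 5.28 CPM while Kcnj16 was at 3.59, 1.05 and 3.01. Δ225 replicate 3, with 10.6 CPM of Kcnj16, had 26.3 CPM of Cdh16, against at most 0.415 in the other Δ225 libraries. Those other Δ225 libraries still held 1.35 to 2.74 CPM of Kcnj16. In Δ306 replicates 1 and 3, Cdh16 was at 8.78 and 8.51 CPM with Kcnj16 at 0.658 and 0.283. The sum of 7 mesonephric markers, Cdh16 among them, differed less, at 37.9 to 54.5 CPM in WT, 27.6 to 57.8 in Δ104, 46.2 to 69.8 in Δ225, 42.4 to 73.2 in Δ306 and 48.5 to 63.8 in Δ93. In Meis1 KO that sum was 50.9 and 56.5 CPM in replicates 1 and 3 and 34.1 and 29.2 in replicates 2 and 4. Cdh16 itself made up 20.1 and 20.4 CPM of it in replicates 1 and 3, and 26.3 of the 69.8 in Δ225 replicate 3. The differences in the sum are thus in part those of Cdh16 and are no separate support. Δ93 replicate 4 held 9.84 CPM of Cdh16 and 0.0265 of Kcnj16. The part of these cells in the Kcnj16 values was not tested.

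Slc34a2 was highest in the library with the most RNA of liver genes. Their sum was 1394 CPM in Δ93 replicate 4, where Slc34a2 was at 5.09 CPM, and 1.199 to 46.2 CPM in the other Δ93 libraries. Yet Δ306 replicate 3 held 444 CPM of liver genes and no count of Slc34a2, and WT held 2.25 to 12.1 CPM of them with about 2 CPM of Slc34a2. Spp1, the secreted osteopontin, was at 96.4 CPM in Δ93 replicate 4 and 2.53 to 19.7 in the other Δ93 libraries. The part of other tissue in the Slc34a2 values was not tested.

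**Figure D3:**
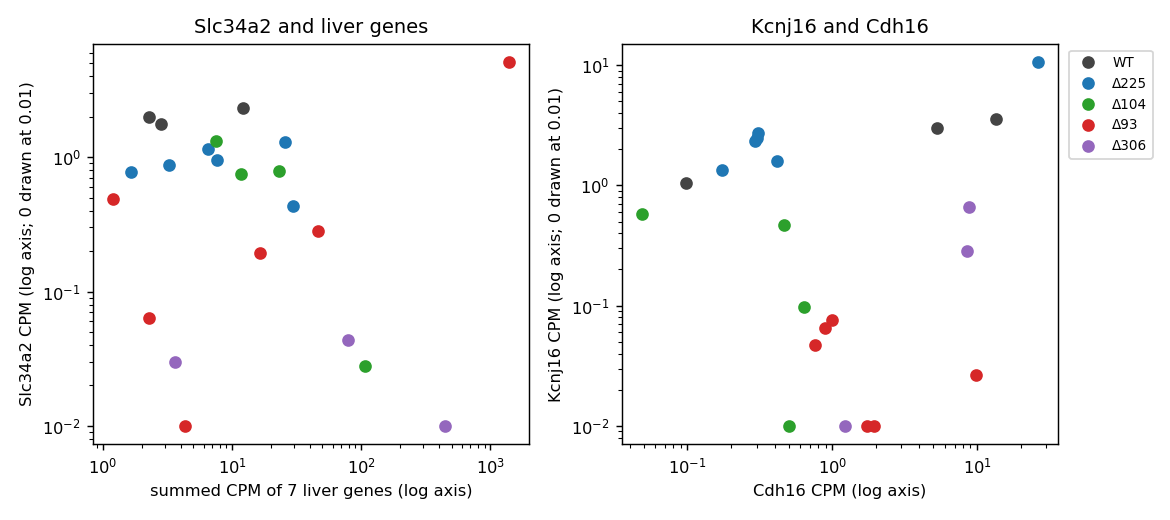
Left, Slc34a2 CPM against the summed CPM of 7 liver genes; right, Kcnj16 CPM against Cdh16 CPM; log axes, 1 point per library of the table of all deletions, with 0 drawn at 0.01. The highest Slc34a2 value (5.09 CPM) lies at the highest liver sum (1394), and the highest Kcnj16 value (10.6) at the highest Cdh16 value (26.3).

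Within groups, Serpina5 and Bpifa6 went with both the Sertoli hormone Amh and the Leydig enzyme Cyp17a1. Deviations of log2 CPM (prior count 2) from the group mean were compared over the 22 libraries, which takes out the differences between group means. Pearson's r of Serpina5 was 0.86 with Amh and 0.92 with Cyp17a1 (Spearman's rho 0.81 and 0.81; adjusted permutation p 0.00012 for both r). For Bpifa6, r was 0.85 with Amh and 0.87 with Cyp17a1 (rho 0.81 and 0.71; adjusted permutation p 0.00157 and 0.00308). The p-values come from 100000 permutations within groups and are adjusted over 8 relations. The WT, Δ306 and Δ93 libraries among the 22 also served to choose the genes, so these p-values are not free of that choice. Most Δ306 and Δ93 libraries also hold few counts of either gene. Values for Δ225 and Δ104 alone, which did not choose the genes, are given below. Leaving out the 2 libraries farthest from the median of each hormone or enzyme, Δ104 replicate 1 among them, r was 0.76 and 0.73 for Serpina5 and 0.68 and 0.58 for Bpifa6.

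Δ104 shows the pattern library by library. Replicate 1 had 0.361 CPM of Amh, 3.30 of Cyp17a1 and no count of Serpina5 or Bpifa6. Replicate 4 had 1166 CPM of Amh, 647 of Cyp17a1, 6.47 of Serpina5 and 1.51 of Bpifa6. Among the Δ93 libraries, replicate 6 had the most Amh (384 CPM), Cyp17a1 (101 CPM), Serpina5 (0.383 CPM) and Bpifa6 (0.153 CPM). That is a description only, because low values in Δ93 chose the genes. The other Δ93 libraries held 0 to 2 counts of Serpina5 and 0 to 3 of Bpifa6. The 4 Δ104 libraries had the same order for Serpina5, Amh and Cyp17a1.

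Slc34a2 and Kcnj16 showed no such relation that passed the test over all libraries. For Slc34a2, r was 0.46 with Amh and 0.41 with Cyp17a1 (rho 0.53 and 0.40; adjusted permutation p 0.174 for both r), and it was −0.0293 and −0.0438 without the 2 farthest libraries. Without Δ93 replicate 4 alone, r was 0.89 with Amh and 0.78 with Cyp17a1 (adjusted permutation p 0.00168 and 0.0169), so 1 library decided both values. For Kcnj16, r was 0.44 with Amh and 0.28 with Cyp17a1 (rho 0.41 and 0.09; adjusted permutation p 0.142 and 0.382), and 0.15 and −0.29 without the 2 farthest. Without Δ306 replicate 2 its r with Amh was 0.62 (adjusted permutation p 0.0105).

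The relations were also computed in the Δ225 and Δ104 libraries alone, 10 libraries that did not choose the genes, an alternative added after the data were seen. There r of Serpina5 was 0.95 with Amh and 0.95 with Cyp17a1 (rho 0.94 and 0.82; adjusted permutation p 0.0214 for both r, 0.00768 and 0.0336 for rho). For Bpifa6, r was 0.92 and 0.97 (rho 0.94 and 0.64; adjusted permutation p 0.0304 for both r, 0.00768 and 0.154 for rho), so with Cyp17a1 the rank test did not pass. Slc34a2 and Kcnj16 had r of 0.44 to 0.88, with adjusted permutation p from 0.0789 to 0.401. For these 10 libraries no value without the farthest libraries was computed. Δ104 replicate 1 lay far below its group mean, at −4.13 for Serpina5, −3.26 for Bpifa6, −7.53 for Amh and −5.16 for Cyp17a1 (log2 CPM). In the 6 Δ225 libraries alone, Kcnj16 ran opposite to Cyp17a1 (r = −0.96, exact permutation p 0.00278, adjusted over 16 relations 0.0222; r = −0.92 without the 2 farthest libraries), but its rho of −0.94 did not pass (adjusted exact permutation p 0.0889). Δ225 replicate 3, the library with the muscle genes, had the highest Kcnj16 (10.6 CPM) and the lowest Cyp17a1 (157 CPM). The other 7 relations in Δ225 had adjusted exact permutation p for r from 0.141 to 0.835. With Cyp17a1 in Δ225, r was 0.76 for Serpina5 and 0.86 for Bpifa6 (rho 0.54 and 0.09). Without the 2 libraries farthest in Cyp17a1, leaving 4, these r were −0.48 and −0.82. With Amh in Δ225, r was 0.75 for Serpina5 and 0.51 for Bpifa6 (rho 0.77 and 0.83). Without the 2 libraries farthest in Amh, leaving 4, these r were 0.81 and 0.93. The 6 Δ93 libraries are not read alone, because their low values chose the genes and most hold 0 to 3 counts of Serpina5 and Kcnj16.

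**Figure D4:**
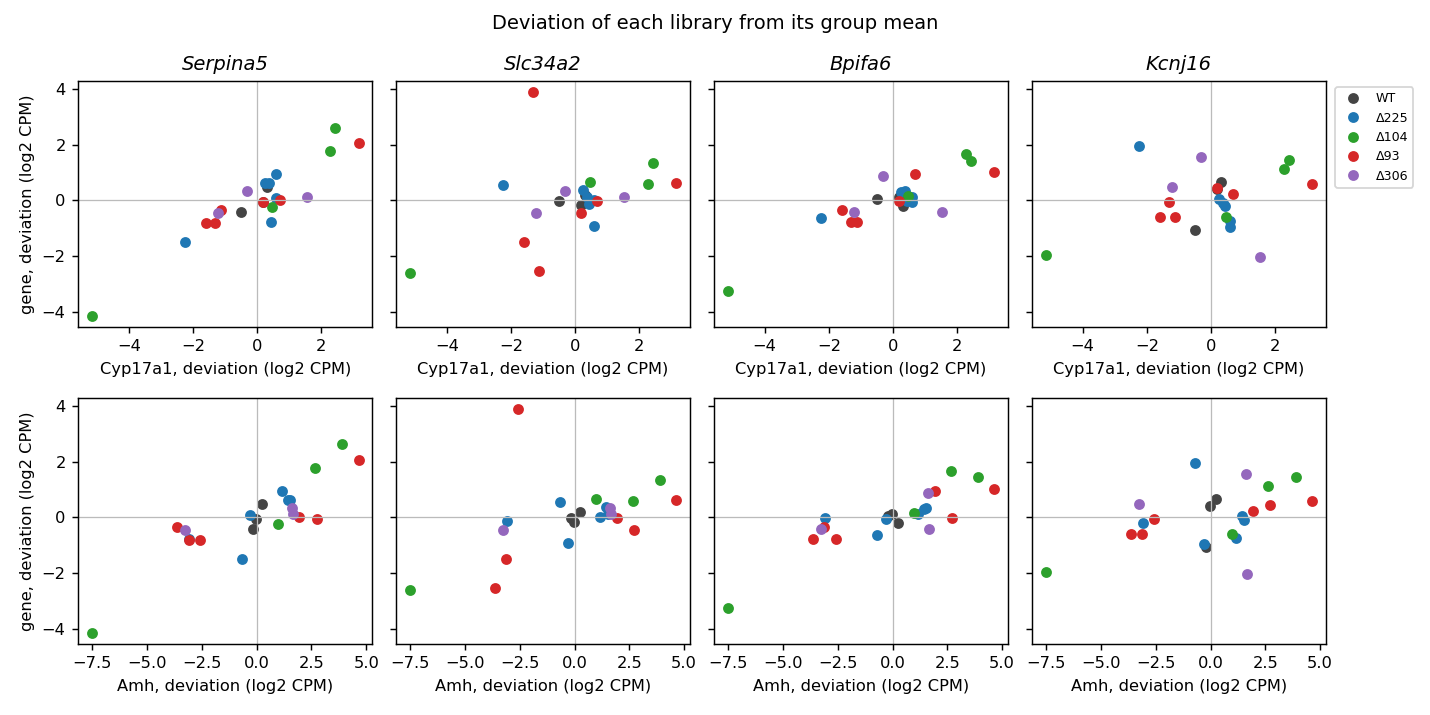
Deviation of log2 CPM from the group mean for each gene (vertical) against that of Cyp17a1 (top) and Amh (bottom), 1 point per library of the table of all deletions. Serpina5 and Bpifa6 follow both (r from 0.85 to 0.92), Slc34a2 has 1 Δ93 library high above the rest, and Kcnj16 is scattered.

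The genes whose levels were most like each of the 4 over the 22 libraries differed between them. These values describe a shared pattern over groups and libraries and carry no test. For Serpina5 they were Thbd (r = 0.99), which encodes thrombomodulin, Oxtr, the oxytocin receptor (0.99), Star (0.98) and Hsd3b1 (0.98), which act in steroid synthesis, and Rassf5 (0.98). Cyp17a1 came 11th and Bpifa6 14th of 22940 genes. For Bpifa6 they were the synaptic protein Cbln1 (0.98), Enc1 (0.98), Hspa12a (0.97), Oxtr (0.97) and Serpina5 (0.97). Oxtr ran from 29.5 to 47.3 CPM in WT and from 0.848 to 1.90 in Δ306, and Cbln1 from 214 to 257 in WT and from 5.16 to 13.0 in Δ306.

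For Slc34a2 the nearest genes were Spp1 (r = 0.91), Klk1 (0.88), Pck1 (0.86), Fank1 (0.85) and Elapor1 (0.85). In Δ93 the highest value and the median were 21.1 and 0.838 CPM for Elapor1 and 5.23 and 0.541 for Klk1. For Pck1 they were 2.15 and 0.463 CPM, and for Fank1 1.35 and 0.405. The libraries that held the highest values of these genes are not given here. Spp1 was highest, at 96.4 CPM, in Δ93 replicate 4, the library with the liver genes. The part of that library in these r values was not tested. Kcnj16 was nearest to Ggta1 (0.94), Megf10 (0.94), Cd36 (0.93), Col11a1 (0.93) and Epha3 (0.93). Megf10, an engulfment receptor, was at 8.88 to 19.2 CPM in Δ225 and 0.316 to 1.51 in Δ93. Cd36, a fatty acid uptake protein, was at 12.9 to 18.9 CPM in Δ225 and 4.23 to 6.74 in Δ93. With each other, Serpina5 and Bpifa6 had r of 0.97 over all libraries and 0.90 within groups. Kcnj16 had 0.83 with each of those 2 over all libraries and 0.57 with Slc34a2.

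The genes next to them were examined in the same libraries. Serpina5 lies 6.59 kb before Serpina3a in the serpin A cluster, a row of protease inhibitor genes. Serpina3a was at 3.75 to 5.05 CPM in WT, 2.13 to 8.98 in Δ225, 1.72 to 9.19 in Δ104, 0.672 to 1.94 in Δ93 and 0.395 to 1.27 in Δ306. Serpina3b, the next gene on, was at 5.28 to 7.87 CPM in WT, 0.781 to 3.82 in Δ225 and 0.0555 to 3.60 in Δ104. Serpina3b was thus lower than WT in every Δ225 and every Δ104 library, as were 4.9% of all genes tested in Δ225 and 9.4% in Δ104. Its adjusted p in edgeR was 0.332 in Δ225 and 0.393 in Δ104. Serpina5 overlapped WT in both groups.

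Of the 22 other genes in the serpin A list, 15 could be tested in the table of all deletions and 8 in the Meis1 table, and none passed in Δ225 against Δ104, Δ104 against WT, Δ225 against WT or Meis1 KO against WT by edgeR. The numbers with an unadjusted p under 0.05 were 3, 3, 0 and 1 in those comparisons, and DESeq2 called Serpina16 in the first and the second (1, 1, 0 and 0). Over all genes tested, 10.6%, 15.7%, 16.1% and 19.3% had an unadjusted edgeR p under 0.05 in the same order. Against WT, 4 of the 15 fell and 1 rose in Δ306, and 4 fell and 1 rose in Δ93. They were the same in both: Serpina3a (−2.26 and −1.63), Serpina3b (−4.11 and −4.08), Serpina3c (−6.46 and −4.35) and Serpina3g (−2.65 and −2.20) fell, and Serpina16 (3.10 and 3.20) rose. The 2 comparisons share the WT libraries. Over all genes tested, 3.46% fell and 2.96% rose in Δ306, and 6.84% fell and 7.23% rose in Δ93. The liver-expressed Serpina1a to Serpina1d, at 4.24 to 5.04 in log2 fold change, did not pass in either, and stood beside liver sums of 3.63 to 444 CPM in Δ306 and 1.199 to 1394 in Δ93.

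Bpifa6 lies 10.8 kb after Bpifb4 and 7.77 kb before Bpifa2, in a cluster of lipid-binding family genes. Bpifb4 was at 5.00, 2.78 and 4.40 CPM in WT and 0.176, 0.119 and 0.318 in Δ306. In Δ104 it was at 0.111, 1.13, 6.10 and 4.67 CPM, lowest in the library in which Bpifa6 had no count. Bpifb4 fell against WT in Δ306 (log2 fold change −4.30 ± 0.98, adjusted p 0.0146 in edgeR) and Δ93 (−3.19 ± 0.70, adjusted p 0.00518). Of the 16 other family genes, 5 could be tested (4 in the Meis1 table) and none passed in the 4 comparisons above by edgeR or DESeq2, with Pltp in Meis1 KO as the 1 gene at an unadjusted edgeR p under 0.05. Besides Bpifb4, Pltp, a plasma phospholipid transfer protein, fell in Δ93 (−1.996, adjusted p 0.0273 in edgeR).

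Kcnj16 lies 38.2 kb before Kcnj2, another inward rectifier gene, and 1.75 Mb before Sox9. Map2k6, 443 kb before Kcnj16, stayed between 11.6 and 25.1 CPM in all 22 libraries. Kcnj2 was at 2.22 to 5.60 CPM in WT, 1.83 to 3.44 in Δ93, 1.19 to 4.37 in Δ104 and 1.77 to 19.4 in Δ306, and it overlapped between all of these groups. Sox9, the Sertoli transcription factor, was at 98.7 to 104.3 CPM in WT, 11.6 to 116 in Δ104, 9.69 to 74.1 in Δ93 and 11.2 to 64.0 in Δ306. None of Map2k6, Kcnj2 and Sox9 passed in any of the 6 comparisons by edgeR, or by DESeq2 in the 4 in which it was run. Sox9 in Δ93 against WT alone had an unadjusted edgeR p under 0.05 (0.0131, adjusted p 0.0742), as did 28.5% of all genes tested there. The log2 fold changes of Kcnj2 and Sox9 in Δ104 against WT were −0.35 ± 0.63 and −0.56 ± 0.67, beside −3.21 ± 1.03 for Kcnj16.

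**Figure D5:**
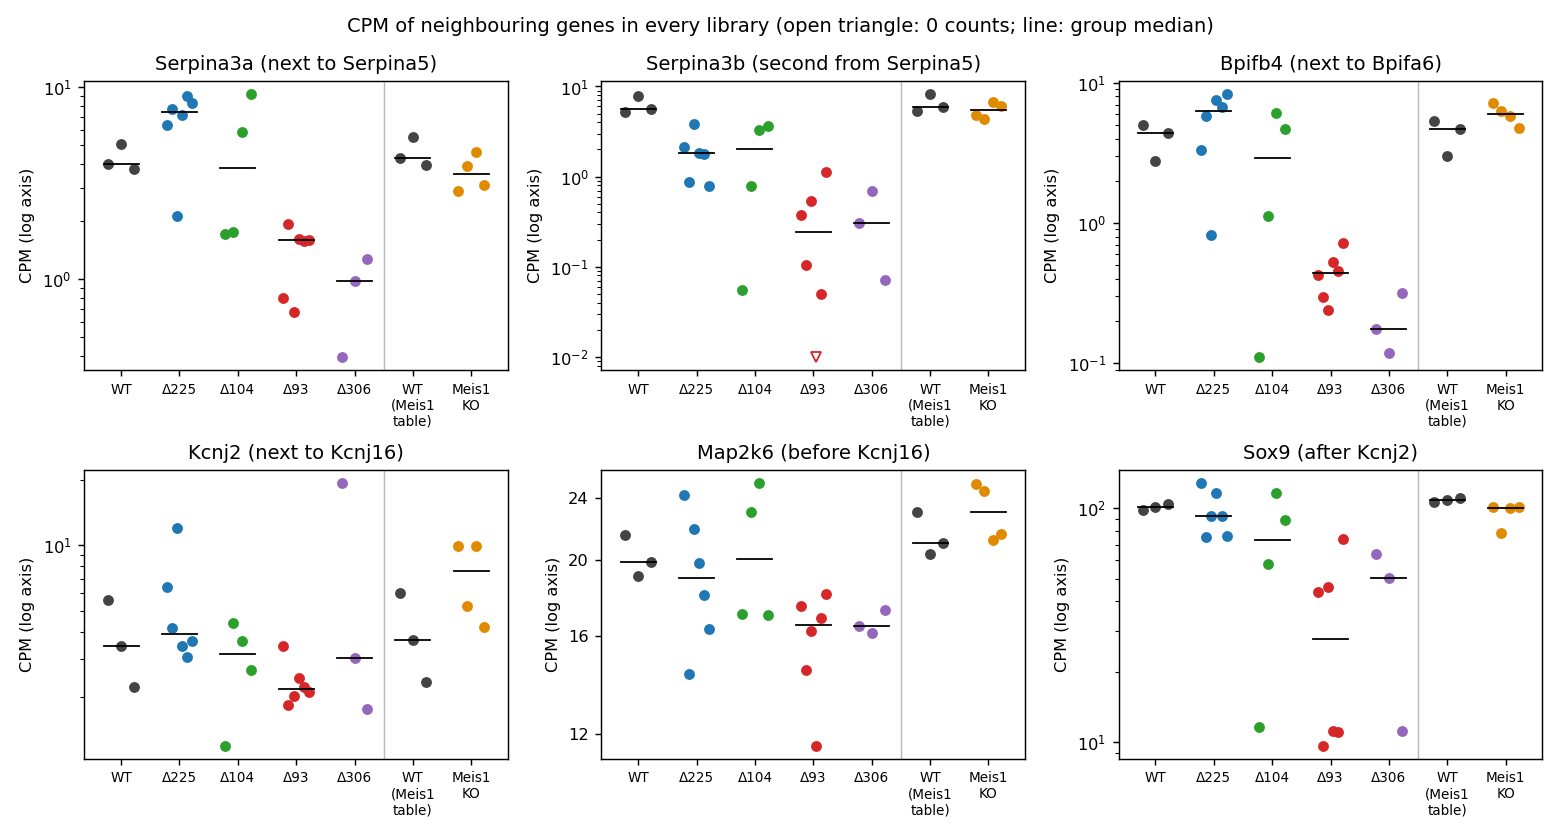
CPM (log axis) of 6 genes near Serpina5, Bpifa6 and Kcnj16 in every library; points are libraries, black lines medians, open triangles 0 counts, and the Meis1 table stands right of the grey line. Bpifb4 and Serpina3a are low in Δ306 and Δ93, Serpina3b is below WT in Δ225 too, and Map2k6 stays between 11.6 and 25.1 CPM in the table of all deletions.

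Of 14 other inward rectifier genes, 10 could be tested (9 in the Meis1 table), and none passed in the 4 comparisons above by edgeR. Unadjusted p-values under 0.05 were found for 3, 1, 2 and 3 of them, in the order given for the serpins, and DESeq2 called 0, 1 (Kcnj5), 1 (Kcnj5) and 1 (Kcnj3). The shares over all genes are those given for the serpins. Kcnj3 fell against WT in Δ306 (log2 fold change −2.43, adjusted p 0.00737 in edgeR) and Δ93 (−1.70, adjusted p 0.00586), and Kcnj5 in Δ93 (−2.30, adjusted p 0.00110). Kcnj10, whose product pairs with that of Kcnj16, had log2 fold changes of 0.42 in Δ306 and 0.28 in Δ93, neither of which passed. Of 5 other phosphate transporter genes, 3 could be tested (Slc20a1, Slc20a2 and Xpr1), and none passed in any of the 6 comparisons by edgeR. At an unadjusted p under 0.05 there was Xpr1 in Δ104 and Δ225 and Slc20a1 in Δ306, Δ93 and Meis1 KO, all against WT, and DESeq2, run in 4 comparisons, called Slc20a1 in Meis1 KO. Of all genes tested, 21.9% in Δ306 and 28.5% in Δ93 against WT had an unadjusted edgeR p under 0.05. The fold changes of the 3 phosphate transporter genes ran from −0.63 to 0.49 across the deletions. The medians of the 4 lists in Δ225 against Δ104 were −1.45 (serpin A), 0.12 (BPI-fold), 0.23 (inward rectifier) and 0.01 (phosphate), beside −0.01 over all genes.

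The cell markers moved as follows beside the 4 genes. Over all genes tested, 10.6% had an unadjusted edgeR p under 0.05 in Δ225 against Δ104. The share was 15.7% in Δ104, 16.1% in Δ225 and 19.3% in Meis1 KO, each against WT. Of 12 Sertoli markers none passed in Δ225 against Δ104, Δ104 against WT or Δ225 against WT by edgeR or DESeq2 (0, 1 and 0 at an unadjusted edgeR p under 0.05), and by edgeR Mro and Sox10 fell in Meis1 KO (−0.63 and −0.66). There 7 of the 12 had an unadjusted edgeR p under 0.05, and DESeq2 called 6 (Amh, Dhh, Mro, Ptgds, Sox10 and Sox8). Against WT, Mro fell in Δ306 (−2.06), and Mro (−1.98), Ptgds (−3.52) and Sox8 (−2.66) fell in Δ93, by edgeR. Of 8 fetal Leydig markers none passed by edgeR in those 4 comparisons (4, 0, 0 and 3 at an unadjusted p under 0.05, while DESeq2 called 2, Hsd3b1 and Insl3, in Meis1 KO), and 5 fell in Δ306 and 7 in Δ93, Star among them (−4.24 and −3.42). Of 6 pre-granulosa markers, Foxl2 (−3.40), Fst (−3.70), Irx3 (−4.72) and Bmp2 (−1.84) were lower in Δ225 than in Δ104 by the test, and Foxl2 rose in Meis1 KO (2.90), where DESeq2 called Foxl2 and Bmp2. In Δ104 against WT none of the 6 passed in edgeR, all 6 had an unadjusted p under 0.05, and DESeq2 called 4 (Foxl2, Fst, Irx3 and Rspo1). Against WT, 5 of the 6 rose in Δ306 and 6 of the 6 in Δ93 by edgeR, Foxl2 by 6.21 and 7.01 on the log2 scale. Over the Δ104 libraries the summed pre-granulosa markers ran from 67.0 to 722 CPM, against 64.4 to 112 in WT. The part of cell composition in the values of Serpina5, Slc34a2, Bpifa6 and Kcnj16 was not tested.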

How the data were processed

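Polyadenylated RNA of E13.5 XY gonads was sequenced in 26 samples, from libraries that, per the labels' protocols, were made with a directional kit (NEBNext Ultra II). The authors deposited whole-number counts of reads per gene, in 3 tables, and log2 fold changes with p-values, of which only the gene identifiers and symbols were used here. The submitters' processing notes name STAR 2.7.10a, featureCounts, Subread, DESeq2 and the build mm10, without roles. The annotation and the strand setting of the counting are not given in the sources used here. Columns named fgf9 in the first table were taken as Δ306 from the series' stated design. The 22 libraries of all deletions and the 7 of the Meis1 table were normalized separately, so levels were tested only within a table.

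Counts were analysed in R 4.3.3. Genes kept by edgeR's filterByExpr (version 4.0.16), given the groups, were scaled by TMM and tested by quasi-likelihood in 1 fit of 22 libraries (22941 genes, residual degrees of freedom 17) and 1 fit of the Meis1 table (16791 genes, residual degrees of freedom 5). P-values were Benjamini-Hochberg adjusted over all genes of a comparison and called under 0.05. CPM is relative to TMM-scaled totals. SE is the unshrunk log2 fold change divided by the square root of F, and intervals are normal 95% intervals from it. All 4 genes passed the filter on low counts in both fits, through the groups in which they are high. Libraries of a group differed by more than sampling noise in all 51 pairs (lowest chi-square per degree of freedom 9.65). The fits were tested on simulated data. Named genes are the 4, Amh, Cyp17a1, Fgf9, Meis1, the 5 most alike of each, list genes that passed and listed neighbours; Cdh16 and other single list genes were named after their values were seen. The members and lists were chosen with earlier results of these data known. Alternatives were DESeq2 1.42.0, RLE factors, no composition factor, no filter, a replicate block, fits of 2 groups alone, leaving out each library, a prior count of 0.5 and, chosen after seeing the data, leaving out the libraries low in Y-linked genes or rich in muscle or liver genes, and keeping only Δ225 and Δ104 in the relations.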

Additional observations from a re-analysis of the deposited data

Results flagged for a closer look

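For 7 genes (Serpina5, Slc34a2, Bpifa6, Kcnj16, Amh, Cyp17a1 and Fgf9), 28 pairs of a gene and a group of 4 to 6 libraries were searched for a library far from the others by Dixon's 95% limit, which chance passes in about 1 of 20 groups. In 8 pairs 1 library stood apart. In Δ93 replicate 6, Serpina5 was at 0.383 CPM with the next highest Δ93 library at 0.0472, Amh was at 384 CPM with the next at 102, and Cyp17a1 was at 101 CPM with the next at 18.2. In Δ93 replicate 4, Slc34a2 was at 5.09 CPM with the next at 0.485, and Fgf9 was at 4.75 CPM with the next at 3.09. In Δ225 replicate 3, Kcnj16 was at 10.6 CPM with the next at 2.74, Fgf9 was at 16.5 CPM with the next at 6.36, and Cyp17a1 was lowest, at 157 CPM, with the next at 897. The 8 values came from 3 libraries.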

How the results depend on the processing

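Of 213 values recomputed under the alternatives other than leaving out 1 library, 179 kept their direction and call or size. Kcnj16 in Δ225 against Δ104 passed with DESeq2 (log2 fold change 3.69) and ranged from 2.94 to 4.38 when 1 library was left out. The Δ225 against WT value of Kcnj16 was −0.27 without the libraries with muscle or liver genes, and −0.27 to 0.77 with 1 library left out. With 1 library left out, Slc34a2 ran from −0.0437 to 0.87 in Δ225 against Δ104 and from −0.23 to 0.00485 in Meis1 KO, and Kcnj16 from −0.34 to 0.46 in Meis1 KO. The cause of these changes was not tested.

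Replicate numbers were not shown to pair the samples: deviations of same-numbered libraries had correlations of 0.07 to 0.33 between Δ225 and Δ104, −0.27 to 0.02 between Δ104 and WT, −0.16 to 0.16 between Δ225 and WT, and −0.02 to 0.37 between Meis1 KO and WT. With the replicate block, the Δ225 against WT value of Serpina5 was −0.55, and the counts of genes called were 2, 470, 1638 and 32 in those 4 comparisons, against 148, 14, 48 and 303 without it. No call of Serpina5, Slc34a2, Bpifa6 or Kcnj16 changed under the block.

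These counts moved with other settings too. In Δ225 against Δ104 they were 446 with DESeq2, 1 with the 2 groups alone and 14 without the libraries low in Y-linked genes, and 9 to 557 with 1 library left out. In Δ104 against WT they were 591 with DESeq2, 26 without a composition factor, 31 without the filter, 0 with the 2 groups alone, 2 without the libraries low in Y-linked genes and 9 without those with muscle or liver genes, and 1 to 528 with 1 library left out. In Δ225 against WT they were 781, 1 with the 2 groups alone, 9 and 106 under the same settings, and 5 to 122 with 1 left out. In Meis1 KO they were 1408 with DESeq2 and 15 to 2204 with 1 left out.

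In the description against WT, leaving out the libraries low in Y-linked genes gave −7.01 for Serpina5 and −5.72 for Slc34a2 in Δ306, and −3.04 for Slc34a2 in Δ93. Slc34a2 was −6.96 in Δ306 in the first table alone and −3.29 in Δ93 without the libraries with muscle or liver genes. With 1 library left out, Serpina5 ran from −8.00 to −7.01 in Δ306 and −7.61 to −5.55 in Δ93, Slc34a2 from −6.72 to −5.72 and −3.29 to −0.67, and Bpifa6 from −9.02 to −5.49 in Δ306.

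Without the 2 libraries farthest from the median, r of Slc34a2 was −0.0293 with Amh and −0.0438 with Cyp17a1, and r of Kcnj16 with Cyp17a1 was −0.29. Without the libraries low in Y-linked genes, r with Amh was 0.89 for Slc34a2 and 0.51 for Kcnj16, and 0.78 for Slc34a2 with Cyp17a1, all passing. Without the libraries with muscle or liver genes, r of Slc34a2 was 0.91 and 0.87, both passing. With 1 library left out, r of Slc34a2 ran from 0.19 to 0.89 with Amh and 0.0540 to 0.78 with Cyp17a1, and r of Kcnj16 from 0.20 to 0.62 and −0.12 to 0.50. Members with 0 to 3 counts in a library are limited by depth.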
